A study of Homo sapiens with 8 samples.

Results

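Transcript levels of 8 transcription factor genes of the endoderm and the intestine were followed in colorectal cancer cells with lowered UHRF1. The genes are the GATA factors GATA4, GATA5 and GATA6, the nuclear receptor HNF4A, the forkhead factors FOXA1 and FOXA2, and the caudal homeobox factors CDX1 and CDX2. They were taken by gene name from the deposited gene tables, and all 8 were found among the 60649 gene identifiers that each table lists. PolyA RNA was sequenced in 8 libraries, with 2 in each of 4 groups. HCT116, a human colorectal cancer cell line, carried a control hairpin (HCT116 shScr) or a hairpin against UHRF1 (HCT116 shUHRF1). UF1hypo, a UHRF1 hypomorph made from HCT116, carried the same hairpins (UF1hypo shScr and UF1hypo shUHRF1). UF1hypo is a single clone in which exon 4 of 1 UHRF1 allele was removed, so effects of the allele and of the clone cannot be told apart. The hairpins were delivered by lentivirus to puromycin-selected pools, so all 4 groups carry a vector and were kept under selection. The titles separate UF1hypo from HCT116, while the cell line field reads HCT116 for all libraries. Nothing states that the 2 libraries of a group came from separate cultures, so SDs and p-values cover only the spread between these libraries.

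UHRF1 reads hemimethylated DNA behind the replication fork and brings the maintenance methyltransferase DNMT1 to it, so that methylation patterns pass to daughter cells. During development, FOXA and GATA proteins open chromatin in the definitive endoderm, the layer that forms the gut. Later, CDX2 sets intestinal against gastric identity and acts with HNF4A and the GATA factors on the genes of absorptive cells. In the adult gut GATA4 belongs to the stomach and proximal small intestine, while GATA6 is found along the whole intestine. Promoters of GATA4 and GATA5 are known targets of DNA methylation in colorectal tumors.

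The genes lie on 6 chromosomes of GRCh38, in the coordinates of the gene tables. GATA4 (ENSG00000136574.19) is on chromosome 8 from 11676959 to 11760002 on the plus strand. GATA5 (ENSG00000130700.7) is on chromosome 20 from 62463497 to 62475995 on the minus strand, and GATA6 (ENSG00000141448.11) on chromosome 18 from 22169589 to 22202528 on the plus strand. HNF4A (ENSG00000101076.18) is on chromosome 20 from 44355700 to 44434596 on the plus strand. FOXA1 (ENSG00000129514.8) is on chromosome 14 from 37589552 to 37596059 and FOXA2 (ENSG00000125798.15) on chromosome 20 from 22580998 to 22585455, both on the minus strand. CDX1 (ENSG00000113722.17) is on chromosome 5 from 150166778 to 150184558 on the plus strand, and CDX2 (ENSG00000165556.10) on chromosome 13 from 27960918 to 27969315 on the minus strand. The genes of each family are thus on separate chromosomes, while GATA5, HNF4A and FOXA2 share chromosome 20.

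Values are TPM (transcript abundances scaled to gene length and to a total of 1000000 per library). Log2 fold changes are differences of mean log2(TPM + 1) from limma, fitted over all 8 libraries with 4 residual degrees of freedom, and understate changes of low genes. The p-values and intervals use more degrees of freedom, borrowed from other genes (8.77 for the knockdown in HCT116 and 8.39 in UF1hypo). Each SE pools the spread of all groups, including groups listed at 0, and limma draws it toward the spread of genes of similar mean level. Protein-coding genes with TPM above 1 in at least 1 library of a contrast were tested. A gene was called when its Benjamini-Hochberg adjusted p, taken over all genes tested, fell under 0.05 and its log2 fold change exceeded 1 in either direction. Aligned bases ranged from 5.42 to 7.83 gigabases per library. Counts were not analysed here, so the counting error behind each value is unknown and a TPM of 0 is given as listed at 0. For 2 libraries against 2, an exact two-sided permutation test cannot give a p below 0.333.

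The TPM of UHRF1 itself in HCT116 was 87.5 and 98.4 under the control hairpin and 31.7 and 32.7 under shUHRF1. In UF1hypo it was 47.3 and 50.6 under the control hairpin and 34.1 and 21.1 under shUHRF1. Both hairpin libraries lay below both of their controls in each line. Its log2 fold change was -1.50 in HCT116 (adjusted p = 0.0564) and -0.84 in UF1hypo (adjusted p = 0.0406), so neither was called under both thresholds. A TPM per gene does not separate transcripts of the edited UF1hypo allele from those of the intact allele, and does not measure protein. By western blot, the paper reports less UHRF1 protein in UF1hypo than in HCT116 and a further sharp loss with the hairpin. Replicates correlated at Pearson's r from 0.991 to 0.992 across genes in 3 groups and at 0.956 in UF1hypo shUHRF1. In that group the difference of replicate 2 from replicate 1 followed transcript GC content across genes, with a Spearman's rho of -0.814. Of 8 colorectal epithelium markers, all 8 exceeded a TPM of 1 in every library. The summed TPM of 10 leukocyte markers was 8.27 to 8.89 in HCT116 shUHRF1, 13.5 to 15.7 in HCT116 shScr, 42.2 to 44.3 in UF1hypo shScr and 83.3 to 116 in UF1hypo shUHRF1. CD68 made up 75.9% to 96.3% of that sum, and without it the other markers summed to 1.22 to 2.01 in the first 3 groups and to 9.61 and 5.68 in UF1hypo shUHRF1. For 4 of the 10 (PTPRC, CD3E, CD3D and CD68) both UF1hypo shUHRF1 libraries lay above all others. The share of all genes with that pattern was not counted. Against the UF1hypo controls alone, 30.6% of 13620 tested genes had both knockdown libraries above both controls. CD3E was at 0.211 and 0.183 in UF1hypo shUHRF1. CD3D, a T cell receptor subunit, was at 5.05 and 2.99 there and at most 0.349 elsewhere. CSF1R, a macrophage receptor, was at 1.77 and 1.53 there and at 1.61 and 1.06 in UF1hypo shScr. PTPRC, which all leukocytes carry, was listed at 0 in 6 libraries and at 0.0561 and 0.0728 in UF1hypo shUHRF1. The 6 fibroblast markers summed to 21.2 to 28.9 in the other groups and to 38.3 to 66.2 in UF1hypo shUHRF1, mainly COL1A1. The 4 endothelium markers summed to at most 0.626 and the 6 hepatocyte markers to at most 1.09. Which part these other markers have in the results was not tested.

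GATA4, a zinc finger activator of endoderm and heart genes, was listed at 0 in all 6 libraries outside UF1hypo shUHRF1. In the 2 UF1hypo shUHRF1 libraries its TPM was 2.47 and 3.10, or 2.79 ± 0.444 (mean ± SD, n = 2 libraries, as for every group). Only UF1hypo shUHRF1 stood apart from the other groups, and its level there was similar in both replicates. The limma log2 fold change of the knockdown in UF1hypo was 1.92 (SE 0.190, adjusted p = 0.000434). That SE pools all groups, of which only UF1hypo shUHRF1 had any spread. It is also drawn toward the spread of other genes, so it does not measure the spread of GATA4 alone. In bulk RNA, fewer cells with the transcript and less transcript per cell cannot be told apart.

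GATA5, a GATA factor of gut endoderm, followed the same pattern with more spread. It was listed at 0 in 5 libraries, at 0.105 in HCT116 shUHRF1 replicate 2, and at 5.69 and 2.77 in UF1hypo shUHRF1. The rise in UF1hypo was 2.33 on the log2 scale (SE 0.273, adjusted p = 0.00110). That SE pools all groups, and GATA5 was listed at 0 throughout HCT116 shScr and UF1hypo shScr. As log2(TPM + 1) the UF1hypo shUHRF1 libraries had 2.74 and 1.92, so the SE and adjusted p understate the spread within that group. The replicate with the higher GATA5 value is the one whose GC-rich transcripts read higher, and GATA5 has 63.5% GC in its transcript, at the 93.1st percentile of protein-coding genes. After removing library medians by GC content and transcript length, the log2 fold change was 2.03 (adjusted p = 0.000218). GATA4, with 61.1% GC, was higher in the other replicate, and its corrected value was 1.60 (adjusted p = 0.00268).

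GATA6, the GATA factor expressed throughout the intestinal epithelium, was the only one of the 3 with a TPM above 1 in every library. Its TPM in HCT116 was 4.72 and 5.52 under the control hairpin and 5.90 and 4.93 under shUHRF1. In UF1hypo it was 4.25 and 4.35 under the control hairpin and 10.5 and 12.8 under shUHRF1. Levels of the first 3 groups lay close together, and both UF1hypo shUHRF1 libraries lay above all of them. Mean TPM was 2.70-fold higher in UF1hypo shUHRF1 than in UF1hypo shScr, with a log2 fold change of 1.24 (SE 0.207, adjusted p = 0.00570). Without UF1hypo shScr replicate 1 or replicate 2 the adjusted p was 0.0613 or 0.0501, and with the 4 UF1hypo libraries fitted alone it was 0.0608.

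Summed over GATA4, GATA5 and GATA6, TPM was 4.25 to 5.90 in the 6 libraries of the other groups and 18.6 in both UF1hypo shUHRF1 libraries. GATA6 supplied 97.9% to 100% of that sum in the former. In UF1hypo shUHRF1 replicate 1 and replicate 2 its share was 56.2% and 68.5%. The sum was thus alike in both replicates while the split between GATA5 and the other GATA factors was not. The longest identical stretch between their canonical transcripts was 32 bases (GATA4 and GATA5), against 48 between FOXA1 and FOXA2 and 23 between CDX1 and CDX2.

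**Figure D1:**
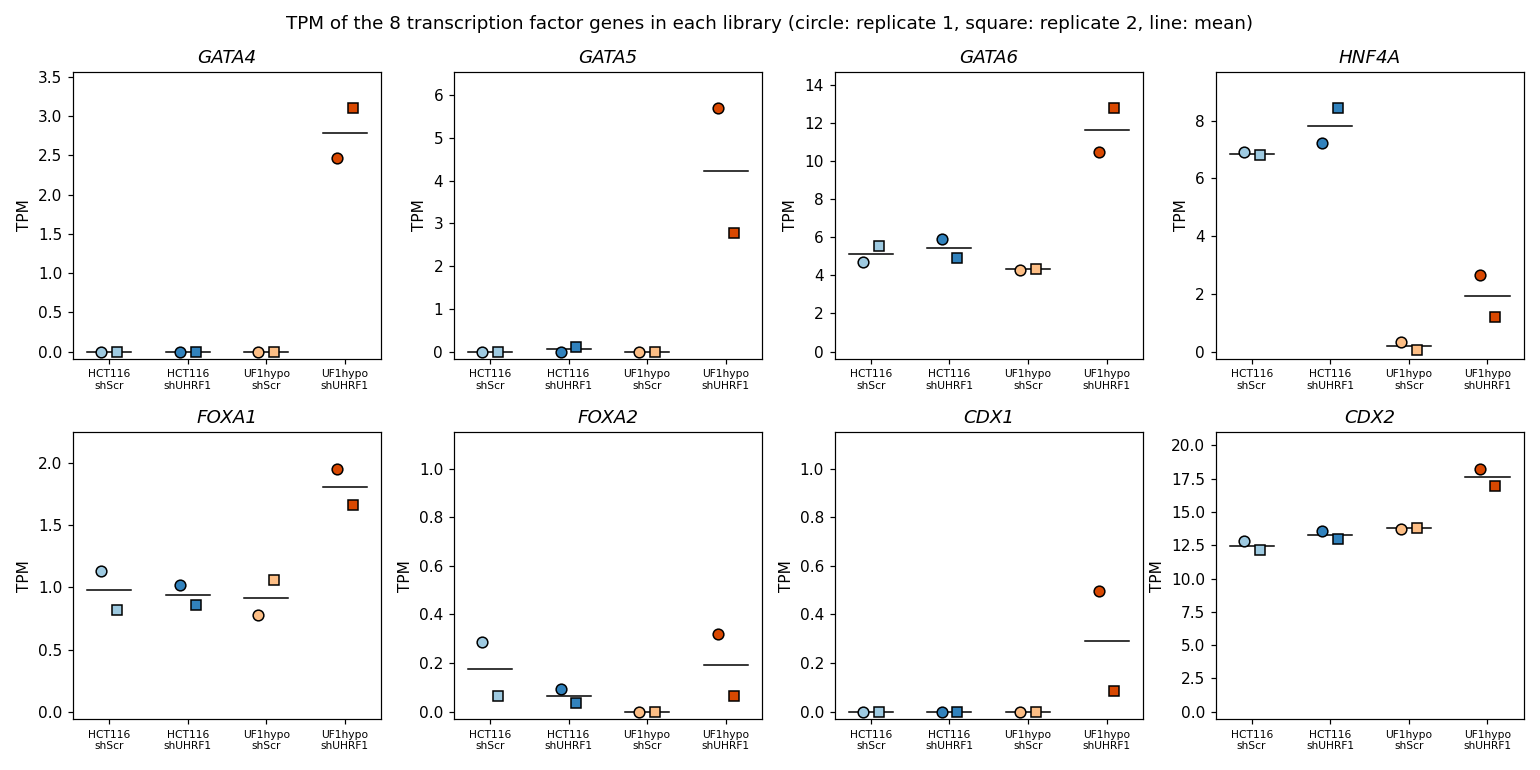
TPM of each of the 8 genes (y axis, from 0, one scale per gene) in the 4 groups (x axis); circles are replicate 1, squares replicate 2 and lines group means. GATA4 and GATA5 stand between 2.47 and 5.69 only in UF1hypo shUHRF1, and HNF4A stands between 6.81 and 8.43 in HCT116 libraries and at most at 2.67 in UF1hypo libraries.

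HNF4A, a nuclear receptor that drives liver, pancreas and intestinal epithelial genes, differed between the lines under either hairpin. Its TPM was 6.90 and 6.81 in HCT116 shScr and 7.22 and 8.43 in HCT116 shUHRF1. The UF1hypo shScr libraries had 0.313 and 0.0545 and the UF1hypo shUHRF1 libraries 2.67 and 1.199. Every UF1hypo library lay below every HCT116 library, and within UF1hypo both knockdown libraries lay above both controls. With the control hairpin the log2 fold change of UF1hypo against HCT116 was -2.74 (SE 0.282, adjusted p = 0.000979). The ratio of mean TPM was 37.3-fold, but it rests on UF1hypo values below 1 TPM, and was 126-fold without UF1hypo shScr replicate 1 and 21.9-fold without replicate 2. With the UHRF1 hairpin the log2 fold change was -1.63 (SE 0.274, adjusted p = 0.00323). The mean TPM was 4.05-fold lower there, or 6.53-fold without UF1hypo shUHRF1 replicate 1 and 2.93-fold without replicate 2. Both calls held under each of 23 alternative settings, with values from -4.78 to -1.90 and from -2.06 to -1.26.

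The rise of HNF4A with the knockdown in UF1hypo was 1.27 on the log2 scale (SE 0.275, adjusted p = 0.0187), and left HNF4A below its HCT116 level. This call was lost in 7 of 23 settings. Its adjusted p was 0.0700 without UF1hypo shScr replicate 1 and 0.132 without UF1hypo shScr replicate 2, and its log2 fold change was 0.90 without UF1hypo shUHRF1 replicate 1.

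The gene tables give 1 value per gene and do not separate transcripts from different starts. RefSeq places 2 starts of HNF4A in its promoter table, 45540 bases apart on chromosome 20 of GRCh38. Sequence upstream of both is shown, with that of GATA6, because UHRF1 acts on methylated CpG and these are the called members with an entry. Each run is the 250 bases before the start on the plus strand, with CpG dinucleotides in capitals:
HNF4A, distal start, chr20:44355449-44355698: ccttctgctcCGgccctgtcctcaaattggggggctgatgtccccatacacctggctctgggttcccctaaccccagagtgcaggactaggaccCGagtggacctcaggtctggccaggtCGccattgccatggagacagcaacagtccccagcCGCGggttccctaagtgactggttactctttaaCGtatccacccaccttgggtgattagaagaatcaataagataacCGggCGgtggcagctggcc
HNF4A, proximal start, chr20:44400989-44401238: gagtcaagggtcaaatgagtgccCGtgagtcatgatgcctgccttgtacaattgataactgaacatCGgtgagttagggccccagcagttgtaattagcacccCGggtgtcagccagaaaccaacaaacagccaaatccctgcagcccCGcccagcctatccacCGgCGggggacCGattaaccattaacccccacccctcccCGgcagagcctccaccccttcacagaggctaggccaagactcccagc
GATA6, chr18:22169339-22169588: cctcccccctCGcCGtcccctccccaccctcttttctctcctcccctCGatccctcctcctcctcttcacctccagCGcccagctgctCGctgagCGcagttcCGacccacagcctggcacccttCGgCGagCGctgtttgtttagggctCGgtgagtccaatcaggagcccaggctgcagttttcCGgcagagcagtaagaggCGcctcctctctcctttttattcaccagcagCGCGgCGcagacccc

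Both HNF4A runs held 8 CpG and the GATA6 run held 16. In the whole windows of 300 bases, which add the first bases of the transcript, the distal HNF4A start had 11 CpG, the proximal start 9, GATA6 25, CDX2 16 and FOXA1 34. Among 35116 RefSeq windows of that length the median was 14, and 54.7%, 58.4%, 32.0%, 47.5% and 15.6% of them held at least as many as these starts. Both HNF4A starts thus had fewer CpG than the median window. Which start these cells use is unknown, and whether CpG counts relate to the HNF4A level was not tested. The GATA-type letters AGATAA, searched on both strands, were present at the distal HNF4A start and at CDX2, and in 10.3% of all windows. The CDX-type letters TTTATG, also searched on both strands, were in none of these 5 windows and in 10.6% of all. Promoters of the other members were not printed, and methylation was not analysed here.

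The forkhead factors, which loosen nucleosomes at endoderm enhancers, were at low levels. TPM of FOXA1 in HCT116 was 1.13 and 0.820 under the control hairpin and 1.02 and 0.858 under shUHRF1. In UF1hypo it was 0.777 and 1.06 under the control hairpin and 1.95 and 1.66 under shUHRF1. The first 3 groups overlapped and UF1hypo shUHRF1 lay above them, with mean TPM 1.97-fold that of UF1hypo shScr. The log2 fold change in UF1hypo was 0.55 (95% interval 0.08 to 1.02, adjusted p = 0.118), which was not called. FOXA2 never exceeded a TPM of 0.319 and was not tested. Both UF1hypo shScr libraries list it at 0. It was at 0.319 and 0.0642 in UF1hypo shUHRF1 and from 0.0350 to 0.288 in the HCT116 libraries.

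CDX2, the homeobox factor that specifies intestine, was the most abundant of the 8 genes in every library. TPM of CDX2 in HCT116 was 12.8 and 12.1 under the control hairpin and 13.6 and 13.0 under shUHRF1. In UF1hypo it was 13.7 and 13.8 under the control hairpin and 18.3 and 16.9 under shUHRF1. Both UF1hypo shUHRF1 libraries lay above the other 6, by a small margin. The log2 fold change of the knockdown in UF1hypo was 0.33 (95% interval -0.06 to 0.73, adjusted p = 0.256), and 0.014 once GC and length medians were removed. CDX1, its close relative in crypt cells, was listed at 0 in 6 libraries and at 0.496 and 0.0842 in UF1hypo shUHRF1, and was not tested.

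TPM is per length, so levels can be set side by side between genes. By TPM the order in HCT116 libraries was CDX2, HNF4A, GATA6 and FOXA1, with GATA4, GATA5, FOXA2 and CDX1 at 0.288 or less. HNF4A exceeded GATA6 in each of the 4 HCT116 libraries, and the ranges of these neighbours (6.81 to 8.43 and 4.72 to 5.90) did not overlap. By the deposited coverage, also a per-base value, GATA6 instead exceeded HNF4A in each of these 4 libraries (10.4 against 2.29 in HCT116 shScr replicate 1), so the order of this pair depends on the deposited value used. In UF1hypo shScr the order was CDX2, GATA6, FOXA1 and HNF4A. In UF1hypo shUHRF1 CDX2 and GATA6 remained on top. By TPM, GATA4, GATA5, HNF4A and FOXA1 changed places between the replicates, and each overlapped its neighbour in this order (GATA5, GATA4, HNF4A, FOXA1) in range. By coverage these genes instead kept the order GATA5, FOXA1, GATA4 and HNF4A in both replicates, so their order also depends on the deposited value used. CDX2 was first and GATA6 was second by coverage in all 8 libraries. The number of members with TPM above 1 was 3 or 4 in HCT116 libraries, 2 or 3 in UF1hypo shScr and 6 in both UF1hypo shUHRF1 libraries.

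The first question of the design is what the hairpin did in parental HCT116. Only 4 of the 8 genes passed the filter there, and 0 were called by limma, where 0.0708% of 12704 tested genes were called. None of the 4 had an unadjusted p below 0.05, against 810 of all genes tested. Log2 fold changes were 0.07 for GATA6 (95% interval -0.41 to 0.54), 0.16 for HNF4A (-0.48 to 0.81), -0.02 for FOXA1 (-0.55 to 0.51) and 0.08 for CDX2 (-0.31 to 0.48). Changes within these intervals were not detectable with 2 libraries a group and a spread pooled over all groups. That pool includes UF1hypo shUHRF1, whose replicates correlated least. With the HCT116 libraries fitted alone, 89 genes were called in place of 9, and still none of the tested members. The sign for FOXA1 turned with median-ratio scaling and with the GC and length correction, and those for FOXA1 and GATA6 turned when single libraries were left out.

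In UF1hypo, 6 of the 8 genes were tested. GATA4, GATA5, GATA6 and HNF4A were called higher and 0 were called lower, where 7.39% of 13620 tested genes were called higher and 1.14% lower. The members were chosen with earlier results of these data known, and the study itself names GATA4 and GATA5 as reactivated by this knockdown. Their count is therefore no independent test beside those shares. GATA4, GATA5 and HNF4A passed the filter only through the UF1hypo shUHRF1 libraries, so they had to be higher there to be tested. Of the 1027 genes tested through those libraries alone, 43.1% were called higher. For all 8 members, tested or not, the lower of the UF1hypo shUHRF1 values exceeded the higher of the UF1hypo shScr values. The same held for 30.6% of the 13620 genes tested, a set without FOXA2 and CDX1. In UF1hypo with the control hairpin, neither replicate gave GATA4, GATA5, FOXA2 or CDX1 a TPM above 0. Any value above 0 in both knockdown libraries was thus enough for these genes. The members and the tested genes are unlike sets here, so the count of 8 cannot be judged by that share. Without UF1hypo shScr replicate 1 or replicate 2, 2 members were called, and the calls over all genes fell from 1162 to 655 or 775.

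Whether the hairpin acted differently in the 2 lines was tested as the difference of the knockdown effects. GATA4 (1.92, SE 0.268, adjusted p = 0.00685) and GATA5 (2.26, SE 0.387, adjusted p = 0.0148) were called, where 4.54% of tested genes were called higher and 0.559% lower. Both passed the filter only through UF1hypo shUHRF1, as did 805 genes in all, of which 31.2% were called higher. GATA6 (1.18, adjusted p = 0.0605) and HNF4A (1.11, adjusted p = 0.168) were not. FOXA1 and CDX2 had differences of 0.58 and 0.25, with 95% intervals of -0.09 to 1.24 and -0.31 to 0.81. The call for GATA5 was lost in 6 of the 8 fits that left out a library, all but those without a UF1hypo shUHRF1 library, with adjusted p from 0.0597 to 0.0904. That for GATA4 was lost without HCT116 shUHRF1 replicate 2 (adjusted p = 0.0526). Without UF1hypo shUHRF1 replicate 2, 4 members were called, while the calls over all genes rose from 702 to 2142, and without replicate 1, 3 members and 1073 genes were called.

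Between the lines with the control hairpin, 4 members were tested and HNF4A was called lower, where 0.949% of tested genes were called lower and 2.59% higher. HNF4A passed the filter there only through HCT116 shScr, so it had to be lower in UF1hypo, and of the 263 genes that passed in this way 8.37% were called lower. GATA6, FOXA1 and CDX2 had log2 fold changes of -0.20, -0.04 and 0.13, and were not called. With the UHRF1 hairpin in both lines, GATA4 (1.92, adjusted p = 0.000212) and GATA5 (2.26, adjusted p = 0.000624) were called higher in UF1hypo and HNF4A lower, where 12.2% of tested genes were called higher and 3.92% lower. GATA4 and GATA5 passed only through UF1hypo shUHRF1, and 53.3% of the 1151 genes that did so were called higher, while HNF4A passed in both groups. GATA6 had an adjusted p of 0.00935 but a log2 fold change of 0.97, under the threshold. FOXA1 (0.53) and CDX2 (0.38) were not called. These contrasts and the knockdown contrasts use the same libraries, so they are not independent of each other.

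**Figure D2:**
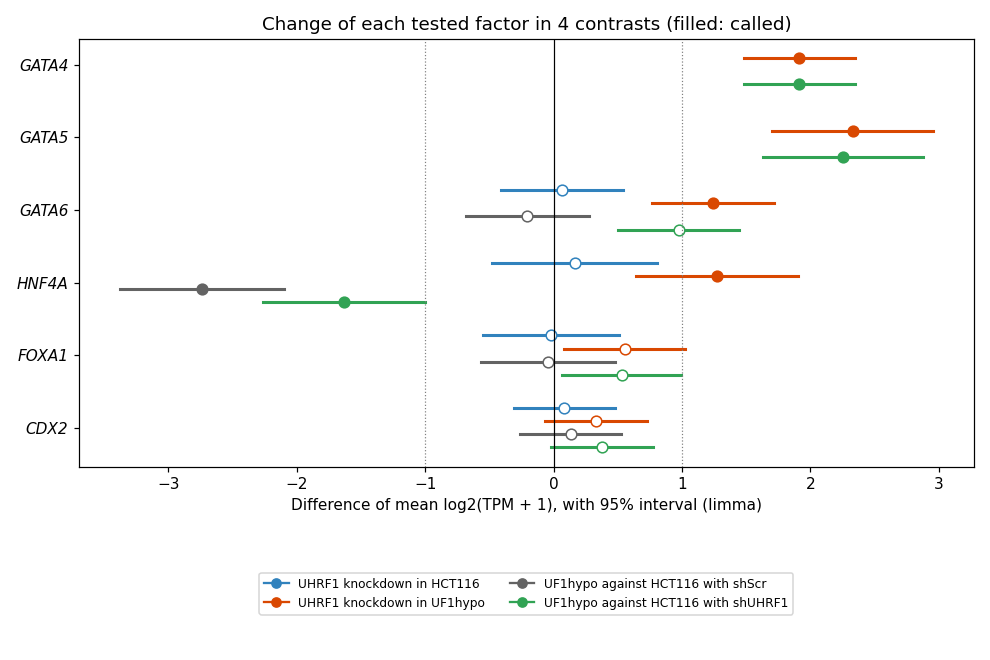
Log2 fold change of the 6 tested members (x axis, difference of mean log2(TPM + 1); bars, 95% intervals from limma) in 4 contrasts; filled points were called and dotted lines mark the threshold of 1. In HCT116 the knockdown values lie between -0.02 and 0.16, in UF1hypo between 0.33 and 2.33, and HNF4A lies at -2.74 and -1.63 between the lines.

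The other endoderm and gut transcription factors were followed as a list of 34 genes, of which 22 were tested in HCT116 and 20 in UF1hypo. In HCT116, 0 of the 22 were called by limma, and 2 had an unadjusted p below 0.05. In UF1hypo, 1 of 20 was called higher and 1 lower, where 7.39% and 1.14% of all tested genes were, with a list median of -0.01 against 0.04 for all genes. HNF4G, the paralog of HNF4A in gut epithelium, had a TPM of 1.02 and 1.30 in UF1hypo shScr and of 2.80 and 3.92 with the knockdown, and rose by 1.01 (adjusted p = 0.0319). ELF3, an ETS factor of differentiating epithelium, had a TPM of 143 and 138 and then 64.2 and 48.1, and changed by -1.32 (adjusted p = 0.00253). These are the only 2 calls among the 20, and they point in opposite directions. Without either HCT116 shScr library, either UF1hypo shScr library or UF1hypo shUHRF1 replicate 2, 1 call was left.

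Between the lines with the control hairpin, 1 of 20 of these factors was called higher and 3 lower, where 2.59% and 0.949% of all tested genes were. HNF4G had a TPM of 4.04 and 3.67 in HCT116 shScr, above both UF1hypo shScr libraries, and its log2 fold change was -1.17 (adjusted p = 0.0388). GATA2, a GATA factor best known from blood, was higher, at 48.1 and 54.2 against 19.6 and 22.4 (log2 fold change 1.25, adjusted p = 0.00760). The 4 calls under the control hairpin depended on single libraries. Without HCT116 shScr replicate 1, HCT116 shScr replicate 2 or UF1hypo shScr replicate 1, 0 of these factors were called by limma, and without UF1hypo shScr replicate 2 or either HCT116 shUHRF1 library 1 was.

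Genes of the intestinal epithelium, many of them targets of CDX2, HNF4A and GATA factors, formed a list of 43. Of these, 28 never exceeded a TPM of 1, among them the brush border gene VIL1, the adhesion gene CDH17 and the lectin LGALS4, and 6 were listed at 0 in all libraries. CDX2 was present in libraries in which VIL1 was at most 0.142 and CDH17 at most 0.148. Other genes of the list were expressed in those same libraries, such as USH1C (13.5 to 28.9 TPM) and PLS1 (10.7 to 38.1 TPM). How CDX2 relates to any of these levels was not tested. With the knockdown in HCT116, 0 of 8 tested genes were called by limma and 1 had an unadjusted p below 0.05. In UF1hypo 5 of 15 were called higher and 1 lower, where 7.39% and 1.14% of all tested genes were. But 8 of the 15 passed the filter only through UF1hypo shUHRF1 and had to be higher there, and 3 of these 8 (PHGR1, MYO1A and ANPEP) were called, or 37.5% against 43.1% of all genes that passed in this way. DPP4, the gene called lower, passed only through UF1hypo shScr. KRT20 and SERPINA1 were the genes called higher that passed in both groups.

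KRT20, a keratin of differentiated colon cells, had the highest log2 fold change of the list, from 9.28 and 9.06 TPM in UF1hypo shScr to 75.0 and 111 with the knockdown (log2 fold change 3.18, adjusted p = 7.51e-05). In HCT116 it stayed between 1.56 and 2.11. By mean TPM its rise was 10.1-fold, less than those of PHGR1 (14.1-fold) and ANPEP (35.8-fold), whose means in UF1hypo shScr were 0.149 and 0.0358. SERPINA1, a protease inhibitor gene, went from 0.786 and 1.87 to 6.01 and 4.31 (1.43, adjusted p = 0.0116). PHGR1 (1.32, adjusted p = 0.0479) and the brush border myosin MYO1A (1.19, adjusted p = 0.0170) also rose, both from means under 1 TPM. DPP4, a brush border peptidase, went the other way, from 7.97 and 8.05 to 0.597 and 0.879 (-2.38, adjusted p = 0.000213). Differentiation genes of the gut therefore moved in both directions in the same libraries. Without UF1hypo shScr replicate 1, 2 genes of this list were called.

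Between the lines with the control hairpin, 2 of 8 tested intestinal genes were called higher and 1 lower, where 2.59% and 0.949% of all tested genes were. KRT20 was 5.70-fold higher in mean TPM in UF1hypo shScr (log2 fold change 1.96, adjusted p = 0.00188), and the peptide transporter SLC15A1 had a log2 fold change of 1.43 (adjusted p = 0.0167) and passed the filter only through UF1hypo shScr. CA2, a carbonic anhydrase of colonocytes, had a TPM of 35.9 and 41.4 in HCT116 shScr and 10.7 and 6.98 in UF1hypo shScr (-2.04, adjusted p = 0.00156). It was the only gene of this list called lower in this contrast.

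Gastric epithelial genes were followed because CDX2 sets intestinal against gastric identity. Of 18 genes, 17 were matched and 11 never exceeded a TPM of 1. In HCT116, 0 of 2 tested were called by limma and 1 had an unadjusted p below 0.05, and in UF1hypo 3 of 6 were called higher and 1 lower, where 7.39% and 1.14% of all tested genes were. The 3 called higher, TFF2, MUC5AC and GAST, passed the filter only through UF1hypo shUHRF1 and had to be higher there, as did ATP4A, which was not called. The fitting share is thus 3 of 4, against 43.1% of the 1027 genes that passed in this way. The study itself also names TFF2 as reactivated by this knockdown. TFF2, a trefoil peptide of mucous neck cells, was listed at 0 in all HCT116 libraries, at 0.286 and 0 in UF1hypo shScr, and at 9.19 and 6.44 in UF1hypo shUHRF1 (log2 fold change 2.94, adjusted p = 0.000123). The surface mucin MUC5AC (1.04, adjusted p = 0.0106) and the hormone gene GAST (1.01, adjusted p = 0.0423) were just past the threshold. ANXA10, an annexin of gastric mucosa, was abundant in HCT116 (96.0 to 121 TPM) and went from 62.5 and 70.2 in UF1hypo shScr to 6.42 and 11.5 in UF1hypo shUHRF1 (-2.80, adjusted p = 0.000239). Between the lines with the control hairpin, only PSCA of 2 tested genes was called, at 1.45 (adjusted p = 0.0303). The knockdown in UF1hypo gave 2 gastric calls without either UF1hypo shScr library or without UF1hypo shUHRF1 replicate 1, and the call of PSCA was lost without HCT116 shScr replicate 1, either HCT116 shUHRF1 library or either UF1hypo shScr library.

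**Figure D3:**
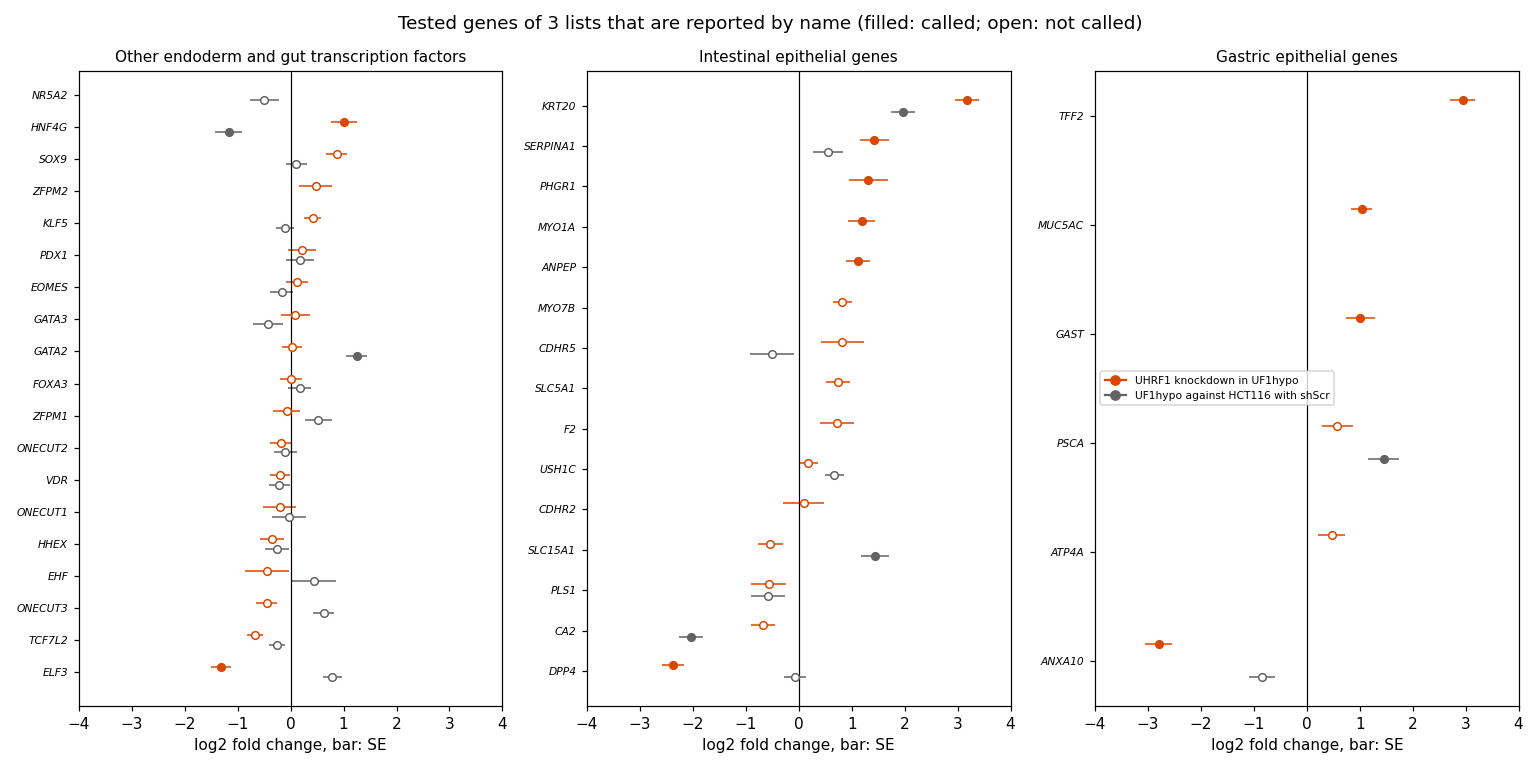
Log2 fold change (x axis, difference of mean log2(TPM + 1); bars, SE) of tested genes (y axis) of the 3 lists, without those not reported by name, for the knockdown in UF1hypo and for UF1hypo against HCT116 with the control hairpin; filled points were called. KRT20 at 3.18 and TFF2 at 2.94 stand to the right, DPP4 at -2.38 and ANXA10 at -2.80 to the left, and the plotted transcription factors lie between -1.32 and 1.25.

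For each member with TPM above 1, the genes most alike were found by Pearson's r of log2(TPM + 1) over the 8 libraries among 6932 genes. These values describe 8 points that fall into groups, share libraries and carry no test. For GATA4 the nearest were KCNK17, TFDP3 and CTCFL, all 3 listed at 0 outside UF1hypo shUHRF1, and 423 genes had an r above 0.95. For GATA5 they were PDIA2, POMC and MUC5AC (497 genes above 0.95), for GATA6 NCCRP1, RIN2 and MAEL (162 genes), for FOXA1 P2RY6, TMEM200B and AJUBA (56 genes) and for CDX2 AMOTL2, CRIM1 and COL16A1 (478 genes). The GATA and CDX2 patterns were thus shared by over 100 genes each.

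HNF4A stood apart in this respect, with 5 genes above 0.95. DPEP1, a membrane dipeptidase, was nearest (r = 0.977), and its TPM in HCT116 was 82.2 and 79.7 under the control hairpin and 95.3 and 83.4 under shUHRF1. In UF1hypo it was 2.19 and 3.40 under the control hairpin and 30.1 and 17.9 under shUHRF1. Its libraries take the same order as those of HNF4A by group, low in UF1hypo and lowest with the control hairpin. YJEFN3 (r = 0.973) and SIPA1L2 (r = 0.961) followed, and ranged from 11.1 to 31.9 and from 4.12 to 10.6 TPM.

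**Figure D4:**
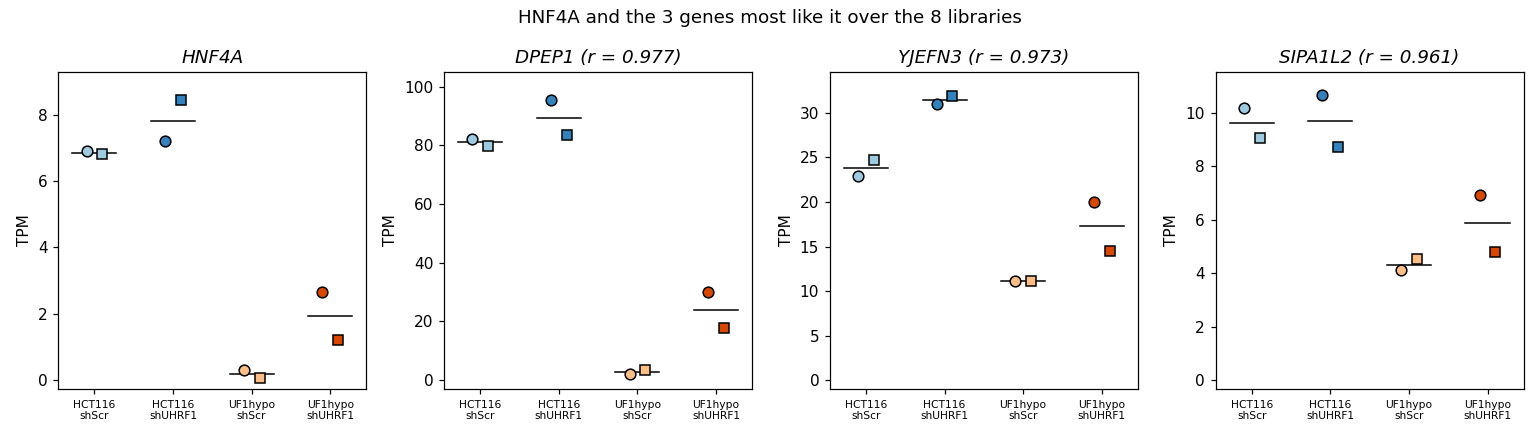
TPM (y axis, from 0) of HNF4A and the 3 genes with the highest Pearson's r to it in the 4 groups (x axis); circles are replicate 1, squares replicate 2 and lines group means. All 4 are lowest in UF1hypo shScr, where HNF4A is at most 0.313 and DPEP1 at most 3.40.

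Genes that overlap a member, or lie within 5000 bases of it, were mostly listed at or near 0. HNF4A-AS1, antisense to HNF4A, was at 0 in all 8 libraries, and TTC6, which overlaps FOXA1, reached 0.0157 in 1 library. GATA6-AS1, antisense to GATA6, was listed at 0 in both HCT116 shScr libraries and in 1 of UF1hypo shScr, and between 0.394 and 1.35 in the other 5. It did not separate the groups as GATA6 did. Whether the libraries kept strand is not given in the sources used here, so reads of GATA6 and its antisense partner cannot be told apart.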

How the data were processed

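PolyA RNA of 8 libraries (4 groups of 2, grouped by title) was analysed. According to the submitters' processing notes, the build was GRCh38 and the tools were HISAT2 2.0.4 and StringTie 2.1.4. The coverage signal deposited by the authors is StringTie's mean per-base coverage, not scaled for depth. The FPKM values deposited by the authors are scaled to gene length and aligned bases, and the TPM values deposited by the authors to gene length and a total of 1000000. DESeq2, which needs counts, was not run.

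Identifiers were matched to GENCODE, records of a gene were summed, and aligned bases were recovered from coverage and FPKM. limma 3.58.1 under R 4.3.3 was fitted to log2(TPM + 1) with 4 groups as terms and variances that follow mean expression, after tests on simulated data. Figures used matplotlib 3.10.9 under Python 3.11.15. Promoter windows came from RefSeq (GRCh38.p14), where 4 of the 8 members had an entry. GIF of the gastric list was not matched. Some called genes of the transcription factor list are counted but not reported here by name.

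The members and the gene lists were chosen with earlier results of these data known. All members, the called list genes with the highest and lowest changes (at most 4 per direction and contrast), the 3 genes most like each member and neighbouring genes are named. The GC and length correction removes each library's median within 10 bins of each. Alternatives were a pseudocount of 0.1, other filters, gene sets, units, scalings and variance models, library weights, a replicate block, and leaving out single libraries.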

Additional observations from a re-analysis of the deposited data

Results flagged for a closer look

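The effect of the UHRF1 hairpin differed between UF1hypo and HCT116 for 7 genes of the members and lists, by limma's test of the difference itself (Benjamini-Hochberg adjusted over 13781 genes). Tested there were 6 members, 22 other transcription factors, 15 intestinal genes and 6 gastric genes. Over all 13781 genes, 720 had an adjusted p below 0.05. The members among the 7 were GATA4, with a difference of 1.92 (adjusted p = 0.00685), and GATA5, with 2.26 (adjusted p = 0.0148). GATA4 was listed at 0 in all HCT116 libraries, and GATA5 in 3 of 4. Both exceeded 1 TPM in no group but UF1hypo shUHRF1, so they entered this test only through the group where they are high, as did TFF2.

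Among the list genes, KRT20 differed by 2.98 (adjusted p = 0.00179), with a log2 fold change of 0.20 in HCT116 and 3.18 in UF1hypo, and TFF2 by 2.94 (adjusted p = 0.00208), from 0 in all HCT116 libraries. In the other direction ANXA10 differed by -2.65 (adjusted p = 0.00515), with -0.15 in HCT116 and -2.80 in UF1hypo. DPP4 differed by -1.66 (adjusted p = 0.0165), with -0.72 and -2.38, and ELF3 by -1.16 (adjusted p = 0.0411), with -0.15 and -1.32. Groups of 2 libraries were not tested for outliers.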

How the results depend on the processing

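Of the log2 fold changes of the members, 543 of the values under an alternative kept direction and side of the threshold, 19 lost the call, 7 gained it and 15 changed sign. The knockdown calls of GATA4 and GATA5 in UF1hypo and those of HNF4A between the lines held in all 23 settings, with GATA4 from 1.13 to 4.84 and GATA5 from 1.45 to 5.35, lowest and highest under FPKM and a pseudocount of 0.1. The causes of the changes below were not tested.

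The knockdown call of HNF4A in UF1hypo was lost with the 4 UF1hypo libraries alone (adjusted p = 0.117), with FPKM (log2 fold change 0.73), with quantile normalization (0.89) and with library weights (adjusted p = 0.118), beside the 3 left-out libraries given above. GATA6 was lost with library weights too (adjusted p = 0.0885), and GATA5 in the difference of the effects with quantile normalization (adjusted p = 0.0755). GATA6 was gained in the difference with variances without a trend (adjusted p = 0.0392) and without UF1hypo shUHRF1 replicate 1 or 2 (0.0239 and 0.0241), and HNF4A without UF1hypo shUHRF1 replicate 2 (0.0118). GATA6 between the lines with shUHRF1 was gained with a pseudocount of 0.1 (1.08), without HCT116 shUHRF1 replicate 1 (1.08) and without UF1hypo shUHRF1 replicate 1 (1.105).

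Values that changed sign were never called. FOXA1 for the knockdown in HCT116 became 0.0016 with median-ratio scaling, 0.026 with the correction for GC content and length, with or without the replicate block, 0.092 without HCT116 shScr replicate 1 and 0.039 without HCT116 shUHRF1 replicate 2 (range over left-out libraries -0.14 to 0.092). GATA6 there became -0.028 without HCT116 shScr replicate 1 and -0.043 without HCT116 shUHRF1 replicate 1 (range -0.043 to 0.18). FOXA1 between the lines with shScr became 0.071 without HCT116 shScr replicate 1 and 0.061 without UF1hypo shScr replicate 1 (range -0.16 to 0.071). With the GC and length correction, with or without the block, CDX2 became -0.075 in the difference, -0.059 between the lines with shScr and -0.13 with shUHRF1.

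All genes called for the knockdown in HCT116 numbered 9, against 30 with a pseudocount of 0.1, 2 with no TPM filter, 3 with all annotated genes, 89 with 4 libraries alone, 3 with median-ratio scaling, 5 without a trend, 71 with the GC and length correction and 101 with library weights. In UF1hypo they numbered 1162, against 563 with 4 libraries alone, 748 with FPKM (filtered at FPKM above 1) and 539 with weights, and in the difference 702, against 448 with a pseudocount of 0.1 and 419 with weights. Members called in UF1hypo numbered 4, against 2 with 4 libraries alone and 2 with weights, and in the difference 2, against 1 with a filter on mean TPM and 1 with quantile normalization. In UF1hypo the other transcription factors called numbered 2, against 1 with 4 libraries alone, FPKM, median-ratio scaling, quantile normalization or weights. Intestinal genes called there numbered 6, against 2 with 4 libraries alone or weights and 3 with FPKM or quantile normalization. Gastric genes numbered 4, against 2 with 4 libraries alone, FPKM, quantile normalization, the GC and length correction, with or without the block, or weights. Between the lines with shScr the transcription factors called numbered 4, against 1 with no TPM filter and 2 with FPKM or the GC and length correction, and the gastric genes 1, against 0 with no TPM filter or quantile normalization.

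The replicate number as a block is no pairing here, since the libraries share only a number, with correlations of their deviations from -0.402 to 0.055. Under the replicate block the knockdown in HCT116 gave 1 call over all genes, 67 with the GC and length correction, and the transcription factors between the lines with shScr gave 2 calls, also 2 with that correction. A crossed replicate block, chosen after seeing the data, gave 17 calls in HCT116 and 1207 in UF1hypo.

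Leaving out each library in turn gave, for all genes, 0 to 100 calls for the knockdown in HCT116 (99 and 100 without UF1hypo shUHRF1 replicate 1 and 2, at most 1 without any other), 655 (without UF1hypo shScr replicate 1) to 2255 (without UF1hypo shUHRF1 replicate 2) in UF1hypo, 171 to 2142 for the difference, 149 to 594 between the lines with shScr and 1585 to 3859 with shUHRF1. Members called ranged from 2 to 4 in UF1hypo and from 0 to 4 in the difference. The other transcription factors ranged from 1 to 2 in UF1hypo and from 0 to 4 between the lines with shScr, the intestinal genes from 2 to 7 in UF1hypo, and the gastric genes from 0 to 1 in HCT116 (1 without either UF1hypo shUHRF1 library), 2 to 4 in UF1hypo and 0 to 1 between the lines with shScr. With a library left out, the lone sample of a group is assumed to vary like the other groups. Read counts per gene are unknown, so values below 1 TPM are read as levels only. Deposited coverage in UF1hypo shUHRF1 was 1.56 and 2.02 for GATA4 and 18.5 and 8.34 for GATA5. For HNF4A in UF1hypo shScr it was 0.324 and 0.0538.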
